A study of Saccharomyces cerevisiae with 5 samples.

Results

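The small subunit processome is the large particle of RNA and protein that forms on the nascent ribosomal RNA precursor in the nucleolus, where the U3 small nucleolar RNA and its protein partners guide the cuts that release 18S ribosomal RNA. Its proteins join as preformed modules, UtpA, UtpB and UtpC among them, and as single assembly factors, RNA helicases and enzymes. In growing yeast the genes of ribosome synthesis are transcribed strongly and are turned down together when growth slows. Here the transcripts of 43 processome genes were followed among 6256 measured genes of budding yeast, Saccharomyces cerevisiae. The genes were taken by name from a list of 18S ribosomal RNA processing factors. Of the 43, 40 carried their own symbol in the scanner files. The other 3, UTP23 (YOR004W), NOC4 (YPR144C) and UTP30 (YKR060W), appeared there only under their systematic names and were matched through the RefSeq table of assembly R64.

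Total RNA of strain Sigma 1287b, L5366, grown at 30 °C in rich medium to mid-log phase, was labelled with Cy3 and hybridized on 5 arrays beside genomic DNA of the same strain labelled with Cy5. All 5 arrays form 1 group, and no other genotype or treatment was compared. The ratio of RNA to genomic DNA at a probe estimates a transcript's level on a scale that can be compared between genes, because nearly every gene is present at the same copy number in the genome, and it refers to 1 probe, not to the whole length of the gene. A level below is the log2 of this ratio after background subtraction and quantile normalization, relative to the median of all genes on the same array, so it says nothing about the amount of RNA per cell. Whether the 5 numbered RNA samples were drawn from separate cultures is not stated in the labels, so p-values measure only the spread between these samples, which may be technical. Arrays 1 to 3 were scanned in 1 session and arrays 4 and 5 in another, and dyes were not swapped.

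The measurements of these genes were well above background in every case. Each gene had 1 probe printed as 7 spots, and all 43 processome genes were well above background in both channels on all 5 arrays, against 90.7% of all genes. Of their 1505 spots, 28 (1.86%) carried an outlier flag and were left out, 6 of them spots of ENP1. The growth state of the cultures was checked with 7 genes of stress and slow growth, among them the heat shock gene HSP12 and the catalase gene CTT1. Their median stood at -3.13 ± 0.09 (SD, n = 5 arrays), while the 56 genes for small subunit ribosomal proteins had a median of 4.90 ± 0.10.

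Nearly all processome genes were expressed above the median gene, within a band that was narrow beside the range of all genes. The median of the 43 levels was 1.72, 1.65, 1.76, 1.68 and 1.70 on arrays 1 to 5, a mean of 1.70 ± 0.04 (SD, n = 5) or 3.25 times the median gene. The middle 50% of the genes lay between 1.30 and 2.10. Of the 43 genes, 36 (83.7%) stood in the top 25% of all genes but only 4 (9.30%) in the top 10%, and the median processome gene was at the 82.6 percentile. Between 1 and 2 on the log2 scale lay 27 of the 43 genes, against 14.2% of all genes, and above 2 lay 12, against 13.7% of all genes. Tested gene by gene with limma at a Benjamini-Hochberg adjusted p of 0.05 over all genes, 42 of the 43 were above the median gene, against 47.7% of all genes, and 1 was below it, against 47.6%. When the test asked for a level more than 1 log2 unit above the median gene (limma's treat), 37 passed, against 26.5% of all genes. Loess normalization within arrays, which removes any trend of the ratio with brightness, lowered the median to 0.61, with 32 genes above the median gene, against 45.5% of all genes, and 8 below it. Brightness here includes the RNA signal itself, so loess can also remove differences in level between genes. Under loess, and with the signals that the scanner software had processed and dye-normalized, the order of the genes also changed. Spearman's rho with the order described below was 0.71 and 0.81 over the 43 genes. Orders that turned are given with their values for some genes only. An order given below without such values may therefore have turned too.

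**Figure D1:**
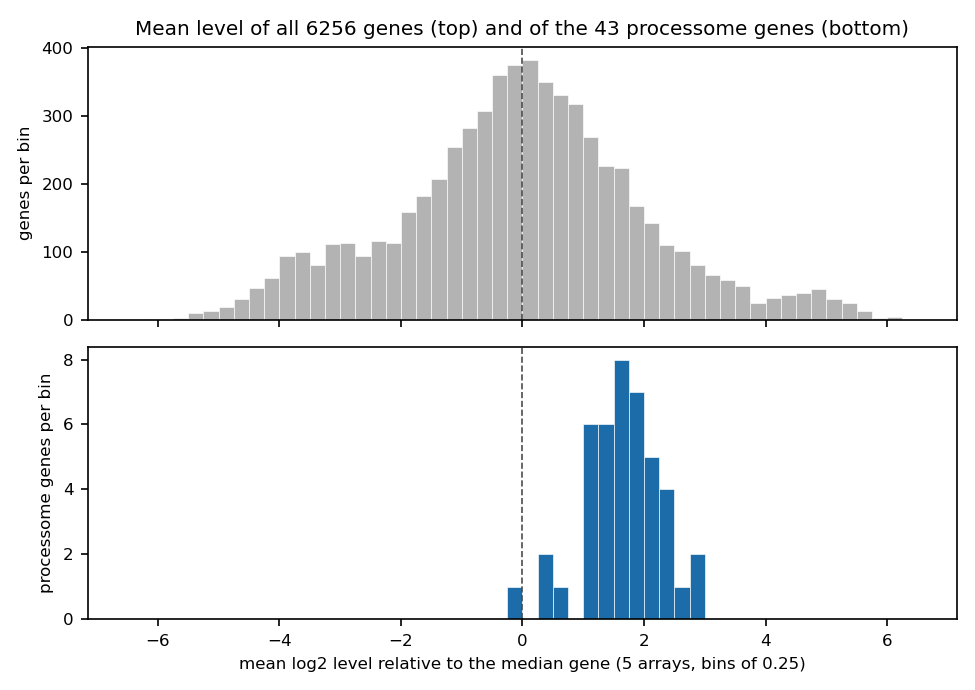
Histogram of the mean log2 level (horizontal axis, relative to the median gene, mean of 5 arrays, bins of 0.25) for all 6256 genes in the top panel and the 43 processome genes in the bottom panel, with the number of genes on the vertical axes. The processome genes stand between -0.14 and 2.95, most of them between 1 and 2, and none reach the group of highest genes beyond 4.

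The UtpA module, which binds the start of the precursor first, had a higher median than UtpB and the Mpp10 complex. All 7 of its genes were above the median gene by more than 1 log2 unit in limma's treat test, against 26.5% of all genes. The median over the module was 2.30 ± 0.10 (SD, n = 5). NAN1 (YPL126W), also known as UTP17, stood at 2.48, 2.50, 2.51, 2.55 and 2.55 on arrays 1 to 5 (2.52 ± 0.03), the smallest spread of all 43 genes. Under loess and with processed signals UTP15 was the highest of the module, at 1.27 and 1.65, against 0.93 and 1.47 for NAN1. UTP4 (YDR324C) stood at 2.56, 2.39, 2.48, 2.47 and 2.48 (2.47 ± 0.06). These 2 genes overlapped between arrays and did not keep 1 order. UTP15 and the large repeat protein gene UTP10 followed at 2.35 ± 0.11 and 2.34 ± 0.10. UTP9 (YHR196W) had the largest spread of all 43 genes, with 2.02, 1.99, 2.13, 1.86 and 1.70 on arrays 1 to 5 (1.94 ± 0.17). UTP8, whose protein has also been linked to export of transfer RNA, stood at 1.92 ± 0.12. The lowest gene of the module was UTP5 (YDR398W), with 1.72, 1.62, 1.85, 1.60 and 1.59 (1.67 ± 0.11). Its call above the median gene was lost under loess (0.04, limma adjusted p = 0.18), and by Cy3 alone UTP9 was the lowest, at 1.68 against 2.02. NAN1 and UTP5, the highest and lowest gene of UtpA, were 0.84 ± 0.13 apart, or 1.80-fold.

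The UtpB module, a complex of WD repeat proteins and Utp6 that binds next to U3, spread further. Its highest gene, DIP2 (YLR129W, also UTP12), stood at 2.47, 2.37, 2.51, 2.34 and 2.48 on arrays 1 to 5 (2.44 ± 0.07). Under loess it stood at 0.82, below UTP6 at 0.99 and PWP2 at 0.87, and with processed signals at 1.16, below UTP6 at 1.19. PWP2 (also UTP1) followed at 2.14 ± 0.09, and UTP6 and UTP21 at 1.76 ± 0.06 and 1.69 ± 0.09. UTP13 stood lower at 1.23 ± 0.11, and its call above the median gene was lost under loess (0.05, limma adjusted p = 0.20). UTP18 (YJL069C) was lowest, with 0.33, 0.34, 0.38, 0.39 and 0.25 (0.34 ± 0.06). It lay 2.10 ± 0.11 below DIP2, a 4.28-fold distance, and 0.89 ± 0.13 below UTP13, its nearest neighbour in the module, on each of the 5 arrays. UTP18 was above the median gene by limma (adjusted p = 7.4e-06), but it fell below it at -0.03 with normexp background correction, -0.78 under loess and -0.43 with the scanner software's processed signals. The median of UtpB was 1.72 ± 0.07, and UtpA was higher by 0.57 ± 0.09 on 5 of 5 arrays.

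UtpC and the Mpp10 complex were more even. In UtpC, RRP7 (YCL031C) stood at 2.04, 2.17, 2.01, 2.22 and 2.18 on arrays 1 to 5 (2.13 ± 0.09) and UTP22 (YGR090W) at 1.91, 1.99, 2.0, 1.91 and 1.89 (1.94 ± 0.05). RRP7 was the higher of the pair on each array, by 0.18 ± 0.12 or 1.14-fold, but by Cy3 alone it was the lower, at 1.71 against 1.95. Both proteins are found with casein kinase 2, a protein kinase of catalytic (CKA) and regulatory (CKB) subunits. Of its 4 genes, CKA2 and CKB2 stood at 2.06 ± 0.06 and 1.90 ± 0.05, close to UtpC. CKA1 stood above both UtpC genes at 2.43 ± 0.06, and CKB1 stood at 0.00 ± 0.07.

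The Mpp10 complex joins Mpp10 with Imp3 and Imp4, which help U3 pair with the precursor. MPP10 (YJR002W) stood at 1.57, 1.54, 1.56, 1.5 and 1.60 on arrays 1 to 5 (1.55 ± 0.04), IMP4 at 1.41 ± 0.08, and IMP3 (YHR148W) at 1.03, 1.0, 1.07, 0.98 and 1.02 (1.02 ± 0.04). MPP10 exceeded IMP3 on each of the 5 arrays by 0.53 ± 0.04, or 1.45-fold. IMP4 lay between them here but above MPP10 with normexp (1.48 against 1.31), under loess (0.38 against -0.23) and with processed signals (0.79 against 0.19). The complex's median was 1.41 ± 0.08 but -0.23 under loess, where IMP3 stood at -0.29. With processed signals IMP3 lost its call above the median gene (0.03, limma adjusted p = 0.098). RRP9 (YPR137W), which encodes the protein specific to the U3 particle, stood at 1.72, 1.65, 1.87, 1.66 and 1.53 (1.69 ± 0.12), close to the median of all 43 genes. U3 shares its core proteins with the other box C/D particles. Their 4 genes, NOP1, NOP56, NOP58 and SNU13, had a median of 3.67 ± 0.07, which was 1.97 ± 0.06 above that of the processome genes on 5 of 5 arrays, but -0.36 relative to it under loess and -0.41 with processed signals.

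The RNA helicases, which unwind RNA duplexes in the particle, had the lowest median of the classes, 1.21 ± 0.03 (SD, n = 5), and they held the only processome gene below the median gene. This rank did not hold under 3 other scalings. The helicases stood at 1.34 with normexp against 1.31 for the Mpp10 complex. Under loess they stood at 0.48, against -0.23 for the Mpp10 complex and 0.12 for the class of BMS1, RCL1 and EMG1, and with processed signals at 0.59, against 0.19 and 0.56. ECM16 (YMR128W), also known as DHR1, displaces U3 from the precursor and was highest, with 1.38, 1.34, 1.49, 1.27 and 1.41 on arrays 1 to 5 (1.38 ± 0.08), though below RRP3 under loess (0.79 against 0.87) and with processed signals (0.99 against 1.12). RRP3, ROK1 and DBP8 lay close to it at 1.34 ± 0.10, 1.31 ± 0.15 and 1.19 ± 0.04. Then came a gap. DHR2 (YKL078W) stood at 0.30, 0.18, 0.46, 0.17 and 0.21 (0.26 ± 0.12) and was above the median gene by limma (adjusted p = 0.00055), though at -0.14 under loess and -0.00234 with processed signals. FAL1 (YDR021W), a relative of the translation initiation factor eIF4A, stood at -0.15, -0.10, 0.07, -0.29 and -0.22 (-0.14 ± 0.14), the only negative mean among the 43. It was called below the median gene (limma, adjusted p = 0.029), a call that was lost when array 1, 2, 4 or 5 was left out (adjusted p between 0.054 and 0.093) and within the first session alone (adjusted p = 0.28), and it stood at 0.17 with the Cy3 signal alone. FAL1 lay 1.51 ± 0.09 below ECM16 and 0.40 ± 0.07 below DHR2 on each of the 5 arrays. UtpA was higher than the helicases by 1.09 ± 0.11, or 2.13-fold, on 5 of 5 arrays.

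The other 3 enzymes and enzyme-like proteins had a median of 1.73 ± 0.09, with RCL1 below the other 2 on this scale. EMG1 (YLR186W), a methyltransferase that modifies 18S ribosomal RNA, stood at 1.89, 1.83, 2.01, 1.81 and 1.76 on arrays 1 to 5 (1.86 ± 0.10). BMS1, a GTPase, stood at 1.75 ± 0.10. Its partner RCL1 (YOL010W), a protein related to RNA cyclases, stood at 1.13, 1.03, 1.11, 1.11 and 1.22 (1.12 ± 0.07). BMS1 was higher than RCL1 on each array by 0.63 ± 0.08, or 1.55-fold, but lower under loess (-0.15 against 0.46) and with processed signals (0.39 against 0.72). EMG1 was likewise below RCL1 there, at 0.12 under loess and 0.56 with processed signals.

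Of the other 15 assembly factors, 13 passed limma's treat test, all but ENP1 and UTP30, against 26.5% of all genes. This class held the 2 highest processome genes. UTP7 (YER082C), a WD repeat protein gene, stood at 2.96, 2.88, 3.05, 2.82 and 3.02 on arrays 1 to 5 (2.95 ± 0.09). RRP5 (YMR229C), whose protein serves in the synthesis of both ribosomal subunits, stood at 3.01, 2.90, 2.90, 2.74 and 2.95 (2.90 ± 0.10). The 2 genes overlapped, with UTP7 the higher on 3 of 5 arrays, and RRP5 stood above NAN1, the next gene, on all 5 arrays by 0.38 ± 0.12. RRP5 was not among the 5 highest genes under loess, at 0.77 against 0.93 for NAN1, or with processed signals, at 1.07 against 1.47, while UTP7 was highest in both, at 2.03 and 3.45. UTP23, UTP20 and KRR1 stood at 2.18 ± 0.12, 2.12 ± 0.09 and 2.09 ± 0.11. NOC4, the partner of NOP14, stood at 1.89 ± 0.10, and NOP14 itself at 1.25 ± 0.08 (-0.18 under loess). LCP5, UTP11, ENP2 and BFR2 fell between 1.53 and 1.81. UTP14, the activator of the helicase encoded by ECM16, stood at 1.31 ± 0.08 (-0.39 under loess), beside 1.38 for ECM16. SOF1 stood at 1.28 ± 0.06. ENP1, which stays on the particle until late in its maturation, stood at 1.07 ± 0.10. UTP30 (YKR060W) was the lowest of the class, with 0.54, 0.47, 0.66, 0.40 and 0.57 (0.53 ± 0.10). It lay 0.54 ± 0.06 below ENP1 and 2.42 ± 0.02 below UTP7, a 5.34-fold distance, on each of the 5 arrays. It was above ENP1 under loess (0.44 against -0.10) and with processed signals (0.45 against -0.02), so its place as the lowest of the class was lost there.

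**Figure D2:**
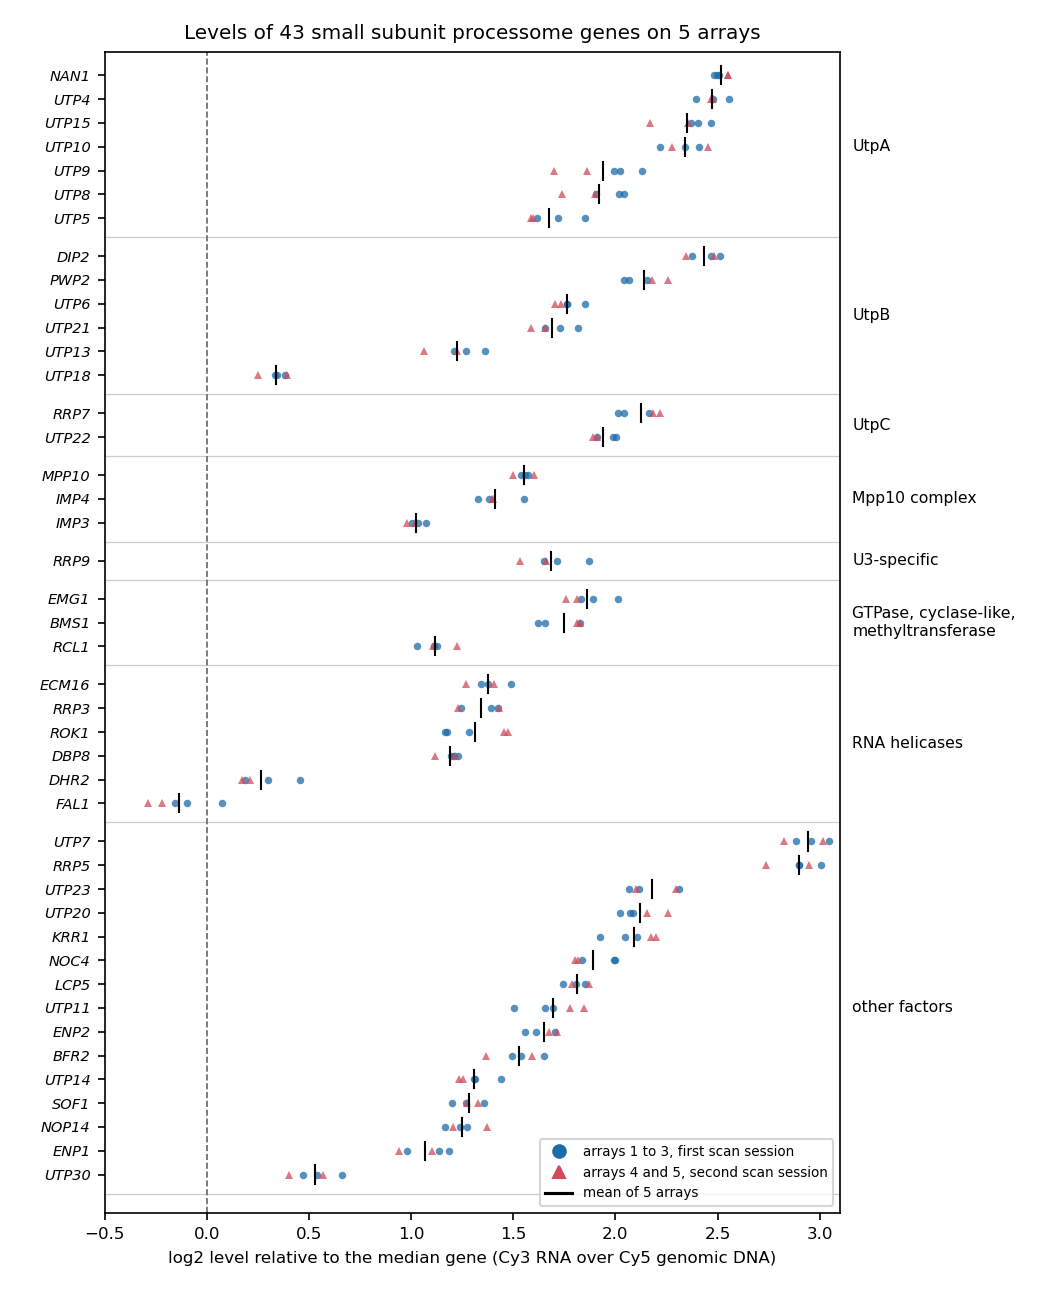
Log2 level relative to the median gene (horizontal axis) of each of the 43 processome genes (rows, grouped by class), with circles for arrays 1 to 3 of the first scan session, triangles for arrays 4 and 5 of the second, and black bars for the mean of 5 arrays. FAL1, DHR2, UTP18 and UTP30 stand apart at the left, between -0.14 and 0.53, while the other 39 genes have means of 1.02 or more.

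The highest and lowest of the 43 genes lay 3.09 log2 units apart on the average array, and their means differed 8.47-fold. Order within the list was clear between distant genes and unclear between neighbours. Of 903 pairs of processome genes, 787 (87.2%) kept 1 order on all 5 arrays, and in 729 (80.7%) the 5 values of one gene did not overlap those of the other. Of the 42 pairs of genes next to each other in the order of means, only 8 kept their order on all 5 arrays. The steps among these 8 with a mean difference above 0.3 were those from RRP5 to NAN1 (0.38 ± 0.12), from IMP3 to UTP30 (0.49 ± 0.07) and from DHR2 to FAL1 (0.40 ± 0.07). Of these genes, RRP5 was below NAN1 under loess (0.77 against 0.93) and with processed signals (1.07 against 1.47). Likewise, UTP30 was above IMP3 under loess (0.44 against -0.29) and with processed signals (0.45 against 0.03). UTP22 and UTP9, in contrast, had the same mean of 1.94, and UTP22 was the higher on 2 of 5 arrays. Over the 43 genes, Spearman's rho between 2 arrays was between 0.953 and 0.987, a description across genes that share the arrays' probes and genomic DNA.

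The genomic DNA divisor moved some single genes but not the list as a whole. The median level with the Cy3 signal alone was 1.71, and all 43 genes were then called above the median gene, against 47.2% of all genes. Between processome genes, the SD of log2 Cy5 was 0.33 and that of log2 Cy3 was 0.58. UTP7 had the weakest genomic DNA signal of the 43, with a log2 Cy5 of 12.7 at the 5.01 percentile of all genes. Without the divisor it stood at 2.17 and ranked 8 among the 43, while RRP5 ranked 1 at 2.97 and UTP10 ranked 2 at 2.72. NOC4 stood at 1.89 by the ratio and 1.19 by Cy3 alone, with Cy5 at the 6.39 percentile. UTP18 had the strongest genomic DNA signal, a log2 Cy5 of 14.1 at the 86.9 percentile, and stood at 1.0 by Cy3 alone against 0.34 by the ratio. FAL1, UTP30, DHR2 and UTP18 were the lowest 4 genes on both scales. The lowest 4 were UTP18, FAL1, UTP14 and IMP3 under loess, and UTP18, FAL1, ENP1 and DHR2 with processed signals. Over the 43 genes, Spearman's rho was 0.81 between the ratio and Cy3 alone, and -0.47 between the ratio and log2 Cy5, against -0.03 over all 6256 genes. These are descriptions, since the ratio contains both signals, and whether copy number or probe hybridization differs between these genes was not tested.

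**Figure D3:**
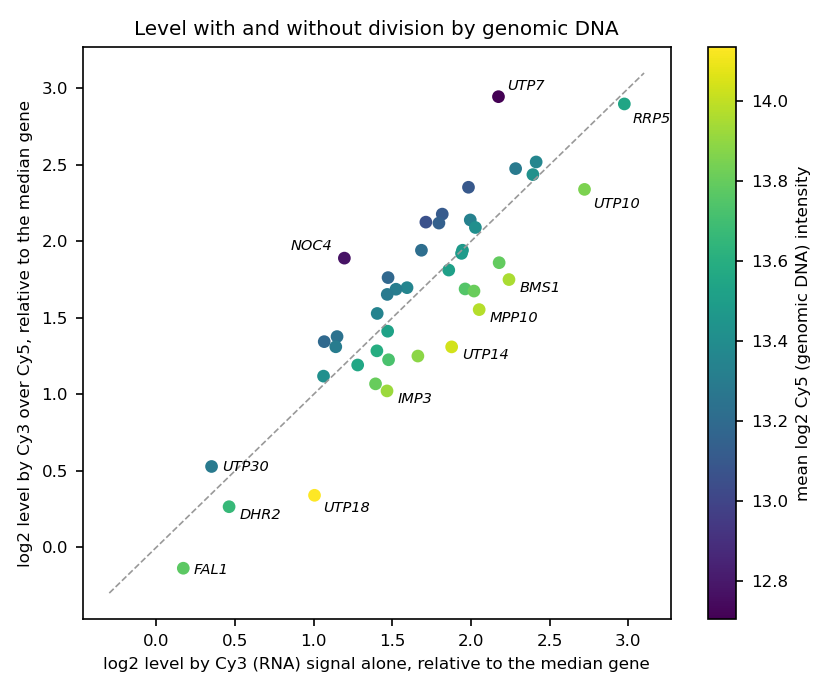
Log2 level by the Cy3 over Cy5 ratio (vertical axis) against the log2 level by Cy3 alone (horizontal axis), both relative to the median gene and averaged over 5 arrays, for the 43 processome genes, coloured by mean log2 Cy5 intensity, with a dashed line of equality. UTP7 and NOC4, with the weakest genomic DNA signals, lie farthest above the line (2.95 against 2.17, and 1.89 against 1.19), and UTP18, with the strongest, lies below it (0.34 against 1.0).

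Other genes of ribosome synthesis were placed on the same scale to show where the processome genes fall, and the order of the lists depended on the scaling. Under loess the processome median of 0.61 exceeded that of each of these lists except casein kinase 2, with the small subunit ribosomal proteins at 0.36, the large subunit assembly factors at 0.36 and RNA polymerase I at 0.24. With processed signals the processome median of 0.87 likewise exceeded all but casein kinase 2, with these 3 lists at 0.63, 0.65 and 0.81. With Cy3 alone these 3 lists stood above the processome genes by 4.23, 0.31 and 0.64, and with normexp by 2.47, 0.05 and 0.79. Brightness includes the RNA signal, so an order of lists under loess does not show which list has the higher transcript levels. Without loess the small subunit ribosomal proteins stood at 4.90, against 0.36 with it and 0.63 with processed signals. Whether the processed signals lose level in the same way was not tested. The values that follow are on the scale used elsewhere here. The 61 large subunit assembly factors had a median of 1.82 ± 0.07, which exceeded that of the processome genes by 0.11 ± 0.03 on 5 of 5 arrays. They reached both lower and higher, from -0.42 for JJJ1 to 3.30 for NOP2, a ribosomal RNA methyltransferase gene, and 15 of the 61 stood in the top 10% of all genes, against 4 of the 43. The 27 other 18S factors, not all of which act outside the processome, had a median of 1.56 ± 0.07. This was lower than that of the 43 genes by 0.14 ± 0.03 on 5 of 5 arrays. With Cy3 alone it stood at -0.02 ± 0.10 relative to the 43 genes and was the higher on 2 of 5 arrays. The 27 ranged from -0.25 for ESF2, whose protein works with the helicase Dbp8, to 3.64 for NSR1, the yeast nucleolin gene. The 7 RNA polymerase I subunits, which transcribe the precursor, had a median of 2.71 ± 0.05 and stood 1.01 ± 0.05 above the processome genes, or 2.01-fold. The core box H/ACA particle genes had a median of 3.08 ± 0.05. The 13 RNA exosome subunits, which degrade the cut spacer, had a median of 1.04 ± 0.07 and stood 0.66 ± 0.10 below the processome genes. Small subunit ribosomal protein genes exceeded them by 3.20 ± 0.10, or 9.21-fold.

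**Figure D4:**
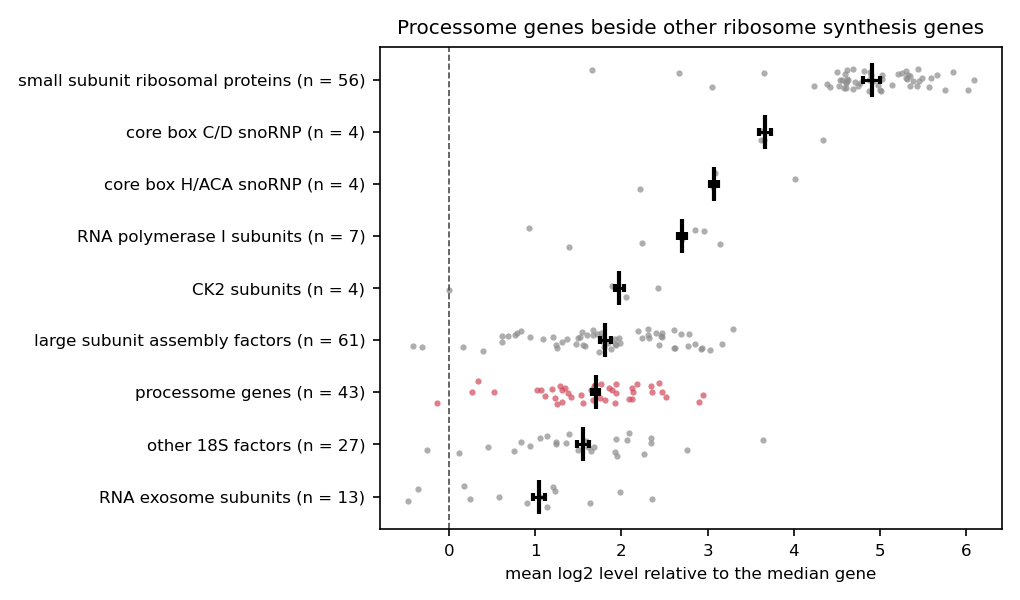
Mean log2 level relative to the median gene (horizontal axis, 5 arrays) for each gene (points, spread vertically at random) of the processome list and 8 other lists of ribosome synthesis genes (rows), with a black tick and bar for the list's median ± SD over 5 arrays. The processome median of 1.70 lies between those of the other 18S factors (1.56) and the large subunit assembly factors (1.82), an order that loess and processed signals changed.

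On arrays 2, 3 and 4 the processome genes tended to deviate together, by small amounts. On array 3, 35 of the 43 (81.4%) lay above their own mean over arrays, against 53.1% of all genes, with a median deviation of 0.07. On arrays 2 and 4, 10 (23.3%) and 14 (32.6%) lay above it, against 50.5% and 47.4% of all genes, with a median deviation of -0.03 on each. Arrays 1 and 5 had 24 (55.8%) and 23 (53.5%) genes above their own mean, near the 50.8% and 51.8% of all genes. Array 3 also had the highest median of the other 18S factors (1.67, against 1.51 on array 2) and of the large subunit assembly factors (1.90, against 1.74). Arrays 2 and 3 share a slide, and what sets them apart was not tested. The median SD over arrays was 0.09 for the processome genes and 0.08 for all genes, and the SD between the spots of a gene had a median of 0.116 and 0.117 in the same order.

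**Figure D5:**
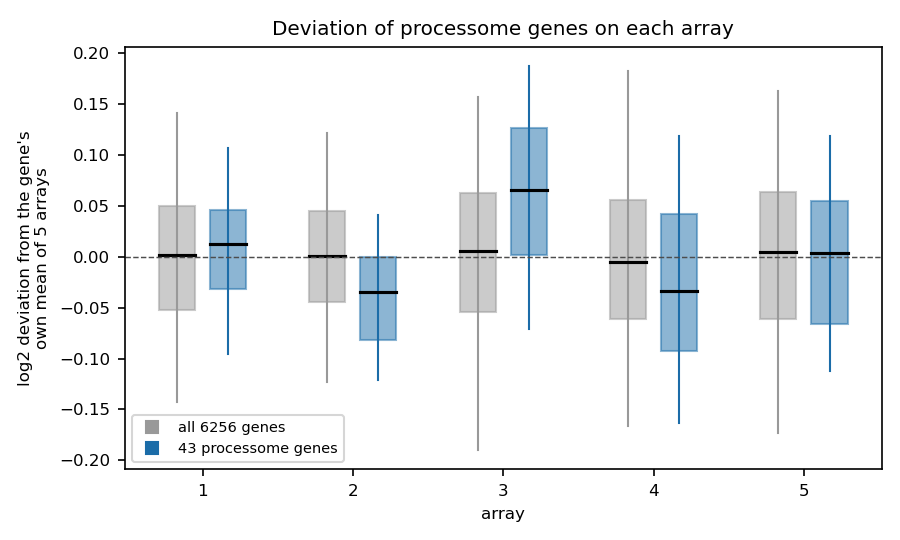
Deviation of each gene's log2 level from its own mean over 5 arrays (vertical axis) by array (horizontal axis), for all 6256 genes (grey) and the 43 processome genes (blue), with black bars for medians, boxes for the middle 50% and lines from the 5th to the 95th percentile. The box of the processome genes lies above 0 on array 3 and below 0 on array 2, with medians of 0.07 and -0.03.

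The arrays were compared between the 2 scan sessions. The first session held 2 slides, 1 with array 1 and 1 with arrays 2 and 3, and the second session was a single slide, so session and slide cannot be told apart. No processome gene passed limma's test between sessions at an adjusted p of 0.05. None of the 43 was called higher in the second session, against 1.47% of all genes, and none lower, against 1.17%. At an unadjusted p of 0.05, 7 of the 43 (16.3%) and 1262 of all genes (20.2%) passed. UTP9 had the largest difference, -0.27 ± 0.07 (SE, limma adjusted p = 0.10), from a mean of 2.05 in the first session to 1.78 in the second. ROK1 (YGL171W), with 1.28, 1.18 and 1.17 on arrays 1 to 3 and 1.47 and 1.45 on arrays 4 and 5, differed by 0.26 ± 0.06 in the other direction (SE, limma adjusted p = 0.071). Both genes were picked for their large differences. With slide as a random block, 17 of the 43 (39.5%) were called, 6 of them higher in the second session, against 35.8% of all genes. Slide lies within session here, so this fit cannot separate them, and no session difference is read from its count. With spots well above background only, 8 (18.6%) were called, 1 of them higher, against 36.6% of genes.

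In the genome the 43 genes are scattered, with systematic names on 13 chromosomes and no 2 of them side by side in the RefSeq annotation of assembly R64. Of 84 measured neighbours, 51 (60.7%) were above the median gene, with a median level of 0.47. Of the 41 processome genes with both neighbours measured, 23 were higher than both. Such a count depends on the level of the genes, whose median was at the 82.6 percentile. The share over all genes was not counted. The second highest gene, RRP5 at 2.90, lies between MTF1 at -0.13 and the ribosomal protein gene RPS10B at 6.09. Beside another gene of the ribosome assembly lists lay 5 of the 43 (11.6%), against 4.82% of annotated genes. These were UTP9, LCP5, RRP3, UTP13 and DBP8, next to RIX1, NSA2, SSF1, RSA3 and NMD3. By the same annotation the median length of the 43 genes was 1722 base pairs, against 1221 for the 5756 genes with a length, and ran from 552 (IMP3) to 7482 (UTP20). Across genes, Spearman's rho between level and length was 0.29 over the 43 and 0.05 over all 5756, as a description.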

How the data were processed

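Per the file headers, the deposited scanner files hold Agilent Feature Extraction intensity values per spot and channel, with flags. A deposited value table gives log2 Cy3 over Cy5, 1 column per array, with medians between -3.01 and -2.57. It matched spot medians without background subtraction in 89.4% to 99.6% of genes at a tolerance of 0.001, so it is not centred, and it served as an alternative.

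The local background median was subtracted from each spot's median, control spots and spots with an outlier flag (1.41% to 3.81% per array) were dropped, log2 of Cy3 over Cy5 was averaged over the 7 spots of a gene, and arrays were quantile normalized and centred on the median gene. No gene spot was saturated. Median Cy3 intensity was 1406 to 1997 and Cy5 11288 to 12951, and the number of arrays limits the precision. A gene was well above background where at least 0.5 of its spots were. Genes were tested with limma 3.58.1 in R 4.3.3 at a Benjamini-Hochberg adjusted p of 0.05 (lmFit and eBayes; treat for more than 1 log2 unit), and the scripts were tested on simulated data. Class and list values are medians per array. RefSeq matched 5756 of 6256 names. No source used here names the genome build of the array design, so RefSeq gave names, gene order and lengths only. The planned count of promoter motifs was not run, because no promoter or probe sequence was used here.

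Members, classes and comparison lists were chosen with earlier results of these data known. Values on every array are given for the 5 highest and 5 lowest processome genes, the 3 with the largest SD and the highest and lowest of each class, with at most the 2 highest and 2 lowest genes of other lists. Alternatives changed the background, the normalization, the divisor, the spot filters and summary, the arrays and the value table.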

Additional observations from a re-analysis of the deposited data

How the results depend on the processing

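Against a median level of 1.70, normexp gave 1.74, loess 0.61 and the processed signals 0.87. The distance from the highest to the lowest gene, 3.09, became 3.23, 2.82 and 3.89 in that order and 2.80 with Cy3 alone. Leaving out 1 array at a time gave medians of 1.68 to 1.72, distances of 3.07 to 3.12, 42 genes above the median gene each time and 0 called between sessions. Between sessions 8 genes (18.6%, against 36.6% of all genes) were called with spots well above background only and 17 (39.5%, against 35.8%) with slide as a random block, against 0. The count with slide as a block cannot be read as session differences, because slide lies within session. Levels changed sign under loess for UTP18 (-0.78), MPP10 (-0.23), IMP3 (-0.29), DHR2 (-0.14), BMS1 (-0.15), UTP14 (-0.39), NOP14 (-0.18), ENP1 (-0.10) and the Mpp10 complex (-0.23), with processed signals for UTP18 (-0.43), DHR2 (-0.00234) and ENP1 (-0.0184), with normexp for UTP18 (-0.0295) and with Cy3 alone for FAL1 (0.17). The cause was not tested. No other alternative changed a sign. Calls above the median gene were lost for UTP5 (0.04) and UTP13 (0.05) under loess and for IMP3 (0.03) with processed signals. Medians of other lists relative to the processome genes, compared across scalings after seeing the data, turned from higher to lower under loess and processed signals for the ribosomal proteins, box C/D, box H/ACA, large subunit and RNA polymerase I lists. Loess can itself remove differences in level here, because brightness includes the RNA signal. The 40 genes with their own symbol had a median of 1.68, an alternative chosen after seeing the data. The promoter motif count was not run. No paired analysis was possible because all arrays form 1 group. With 5 arrays and 1 probe per gene, small steps in the order of levels are below what these data resolve.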
